A study of Schizosaccharomyces pombe with 12 samples.

Results

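RNA polymerases I, II and III are the enzymes that make ribosomal RNA, messenger RNA, and transfer RNA with 5S ribosomal RNA, and their subunit genes were followed here in Schizosaccharomyces pombe (fission yeast). The set held every gene whose symbol in the probe annotation was rpa, rpb, rpc or rrn followed by a number, which gave 35 of the 2896 S. pombe genes tested. Of these, 5 encode subunits of polymerase I, 7 of polymerase II and 10 of polymerase III. Another 2 encode subunits shared by polymerases I and III, 5 encode subunits shared by all 3 enzymes, and 6 are rrn genes, whose products start transcription by polymerase I. Each of the 35 genes was read by 1 probe set that no other gene shared, and each lay above the background level on all 12 arrays. The symbols match the reference annotation of each gene as a subunit or polymerase I factor. The symbol rule leaves out nuc1, which encodes the largest subunit of polymerase I, and ker1, which encodes a stalk subunit of polymerase I, so these are given beside the members.

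The study measured total RNA on GeneChip arrays in 4 groups of 3 arrays, each from 3 independent inoculates. All cells were h- and carried the plasmid ura4+-pREP2-res1, from which a C-terminal piece of the transcription factor Res1 is made once thiamine is withdrawn. The piece takes up the Cdc10 factor, and the cultures stopped dividing after 7 doublings at 25 °C, in an arrest labelled as G1. One strain held wild-type mis4 (mis4+) and the other the temperature-sensitive allele mis4-367. Both were harvested at 25 °C (permissive temperature) or after 2 h at 37 °C. Mis4 loads cohesin, the ring complex that holds sister chromatids together and binds chromosomes outside mitosis. The controls therefore shared the arrest and the plasmid with the mutant. Both alleles give a mis4 transcript, so its level is no check of the labels: it differed by -0.07 on the log2 scale between the strains at 37 °C (adjusted p = 0.541, limma).

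The 3 enzymes share one plan. A catalytic core of 2 large subunits sits on an assembly platform, a stalk of 2 small subunits binds the emerging RNA, and a zinc-ribbon subunit helps the enzyme cut back RNA when it stalls. Polymerases I and III also carry built-in pairs that resemble the polymerase II factor TFIIF, and polymerase III has a further trimer that opens its promoters. In yeast the genes for these subunits are classed with growth genes, and polymerase I and III output is known to follow nutrient and stress signals.

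Values are RMA intensities put on the log2 scale, on which a difference of 1 is a doubling. Differences were tested with limma in 1 fit over the 12 arrays, and p-values were adjusted by Benjamini-Hochberg over all 2896 genes. A gene is said to have risen or fallen only where the adjusted p is under 0.05. Median intensities of the S. pombe genes lay between 394 and 433 on the 12 arrays. The array of mis4+ at 37 °C replicate 3 stood apart: its log2 differences from the average of its 2 replicates had an SD of 0.235 over the 35 genes, and the same SD was 0.045 to 0.147 on the other 11 arrays. Taken over all genes the SD was 0.202 on this array and 0.065 to 0.134 on the other 11, so the deviation was not particular to the polymerase genes. Polymerase genes whose call changed without this array are given with and without it, and so are some other results. Arrays measure whole cultures, so fewer cells of one kind and less RNA per cell cannot be told apart.

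**Figure D1:**
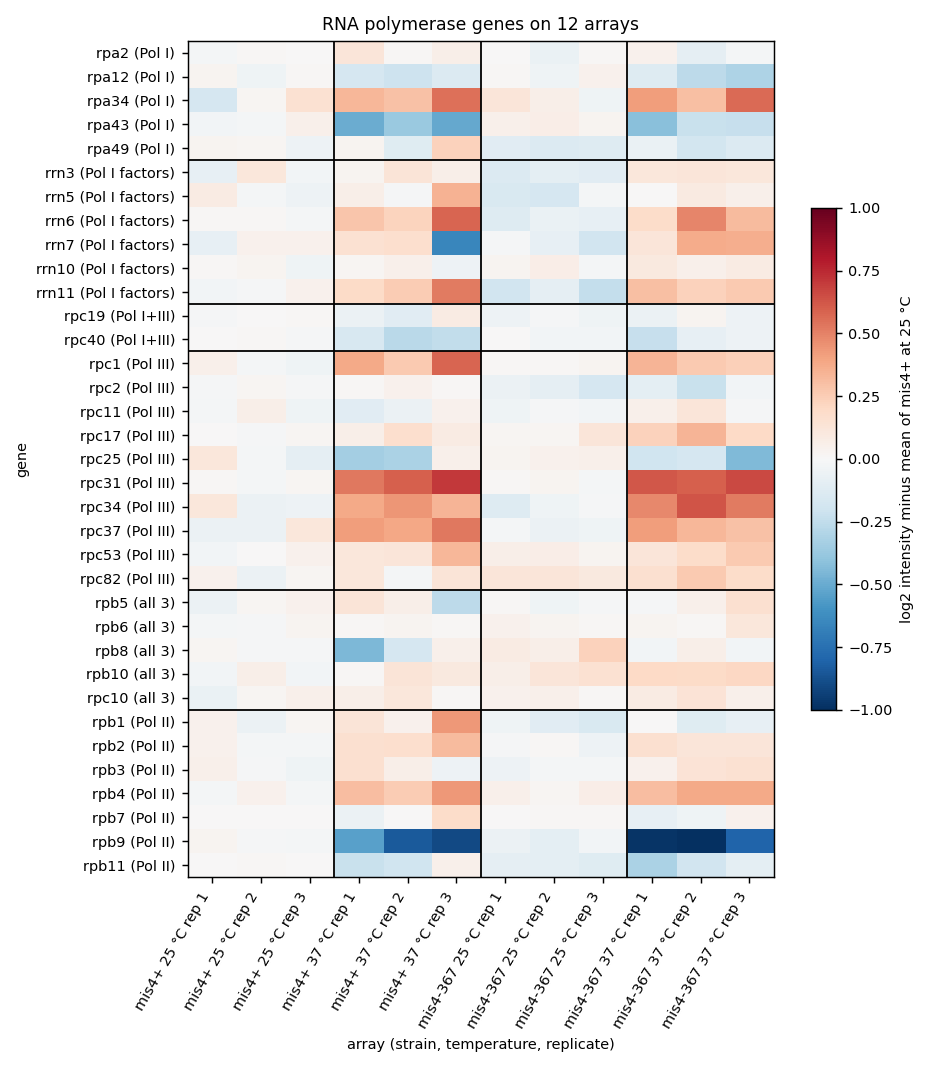
Log2 intensity of the 35 genes on each of the 12 arrays, minus the gene's mean in mis4+ at 25 °C, with rows grouped by polymerase and columns by strain and temperature. The rows of rpc31, rpc34, rpc37, rpb4 and rpa34 turn red and those of rpb9 and rpa43 turn blue at 37 °C in both strains, while the rows of the shared subunits stay pale on most arrays.

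With the shift from 25 to 37 °C some polymerase genes rose and others fell. In mis4+ cells 10 of the 35 genes rose and 4 fell, and in mis4-367 cells 12 rose and 4 fell. Over all genes 33.4% rose in each strain, and 21.9% fell in mis4+ and 23.0% in mis4-367. A mix of rises and falls is thus not particular to these genes. The largest rise in both strains was that of rpc31, a polymerase III gene, and the largest fall was that of rpb9, a polymerase II gene. Polymerases I and II each had rises and falls in both strains, and polymerase III had both in mis4-367 and rises alone in mis4+. In no enzyme did all genes pass in 1 direction. None of the 5 genes for subunits common to the 3 enzymes passed the test in either strain.

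The share of the polymerase genes that rose was near that of the array as a whole, and the share that fell was smaller, a difference that was not tested. In mis4+ cells 33.4% of all genes rose and 21.9% fell, against 28.6% and 11.4% of the polymerase genes. In mis4-367 cells 33.4% of all genes rose and 23.0% fell, against 34.3% and 11.4% of the polymerase genes. The median change of the 35 genes was 0.06 in mis4+ and 0.08 in mis4-367 on the log2 scale, against 0.04 for all genes in each strain. Without mis4+ at 37 °C replicate 3, the mis4+ count was 10 higher and 7 lower, with rpb8, rpb11 and rpc25 added to the falls. Over all genes the falls also grew in number without this array, with 950 higher and 784 lower. The split of all genes moves with the scaling: after quantile normalization over the S. pombe genes, 847 genes rose and 834 fell in mis4+, and 828 rose and 837 fell in mis4-367, compared with 968 and 633, and 966 and 667.

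The 12 genes that passed in both strains had the same sign in both, and these were rpa12, rpa34, rpa43, rrn6, rrn11, rpb2, rpb4, rpb9, rpc1, rpc31, rpc34 and rpc37. They make up 85.7% of the 14 calls in mis4+ and 75% of the 16 calls in mis4-367. The sign of the change was the same in both strains for 27 of the 35 genes. These counts were not made over all genes, so the overlap is not shown to be particular to this set. Across the 35 genes the changes in the strains had a Pearson r of 0.91, and across all 2896 genes it was 0.96; both describe genes, which are not independent replicates.

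**Figure D2:**
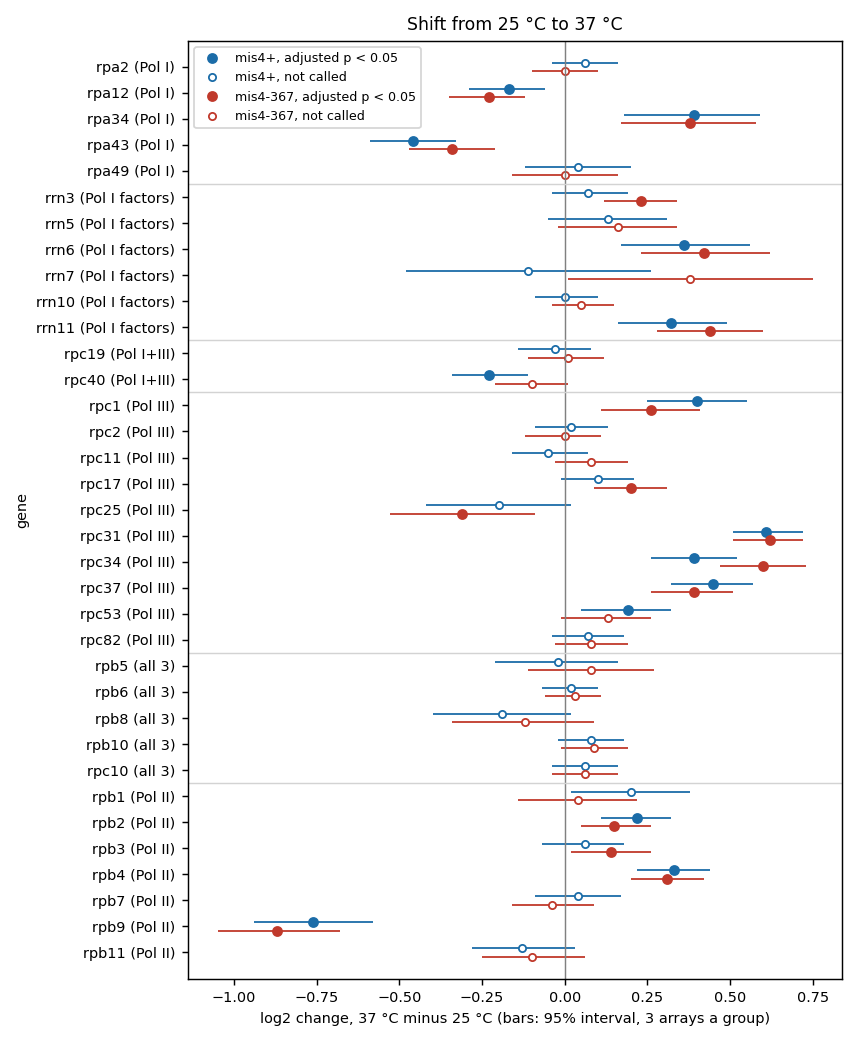
Log2 change from 25 to 37 °C of each gene in mis4+ (blue) and mis4-367 (red), with 95% intervals from limma over 3 arrays a group. Filled points passed an adjusted p of 0.05, and the points run from -0.87 for rpb9 to 0.62 for rpc31, both in mis4-367.

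Of the 10 genes for subunits of polymerase III alone, 5 rose and 0 fell in mis4+ cells, and 5 rose and 1 fell in mis4-367 cells, with medians of 0.14 and 0.17 on the log2 scale. Over all genes 33.4% rose in each strain, and the difference from this share was not tested. The initiation trimer genes rpc31 and rpc34, the TFIIF-like gene rpc37 and the largest subunit gene rpc1 rose in both strains, rpc53 of the TFIIF-like pair in mis4+, and the stalk gene rpc17 in mis4-367. The trimer is made of rpc31, rpc34 and rpc82, which bind the promoter-bound factor TFIIIB and help open the DNA.

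The level of rpc31 (SPOM_SPBC839.12) was 7.80, 7.77 and 7.81 on the 3 arrays of mis4+ at 25 °C and 8.33, 8.39 and 8.50 at 37 °C. In mis4-367 it was 7.81, 7.82 and 7.78 at 25 °C and 8.41, 8.39 and 8.45 at 37 °C. Every array at 37 °C lay above every array at 25 °C, and the strains overlapped at each temperature. The rise was 0.61 ± 0.05 (SE; 1.53-fold, adjusted p = 7.13e-07) in mis4+ and 0.62 ± 0.05 (1.53-fold, adjusted p = 5.72e-07) in mis4-367.

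The trimer subunit gene rpc34 (SPOM_SPCC290.02) was at 9.19, 9.03 and 9.04 in mis4+ at 25 °C and at 9.47, 9.53 and 9.42 at 37 °C. In mis4-367 its levels were 8.96, 9.05 and 9.07 at 25 °C and 9.57, 9.72 and 9.61 at 37 °C. The temperatures did not overlap, and at 37 °C each mutant array was above each wild-type array. The rise was 0.39 ± 0.06 (1.31-fold, adjusted p = 0.00016) in mis4+ and 0.60 ± 0.06 (1.52-fold, adjusted p = 3.88e-06) in mis4-367. The third member of the trimer, rpc82, was at 0.07 (adjusted p = 0.241) and 0.08 (adjusted p = 0.203).

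In the TFIIF-like pair, which helps polymerase III initiate and terminate, rpc37 was at 8.54, 8.54 and 8.71 in mis4+ at 25 °C and at 9.02, 8.99 and 9.13 at 37 °C. In mis4-367 it went from 8.58, 8.54 and 8.56 to 9.01, 8.93 and 8.89, again with no overlap between temperatures. It rose by 0.45 ± 0.06 (adjusted p = 4.04e-05) in mis4+ and by 0.39 ± 0.06 (adjusted p = 0.000122) in mis4-367. Its partner rpc53 rose by 0.19 (adjusted p = 0.0229) in mis4+ and was at 0.13 (adjusted p = 0.0924) in mis4-367. The mis4+ call of rpc53 was lost without replicate 1 (adjusted p = 0.074) or replicate 2 (adjusted p = 0.0594) of mis4+ at 25 °C, and the rise was 0.11 (adjusted p = 0.0493) without replicate 3 of mis4+ at 37 °C.

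Of the catalytic core, the largest subunit gene rpc1 was at 9.29, 9.22 and 9.20 in mis4+ at 25 °C and 9.61, 9.49 and 9.81 at 37 °C. In mis4-367 its levels were 9.25, 9.25 and 9.27 before and 9.57, 9.50 and 9.48 after the shift. It rose by 0.40 ± 0.07 (adjusted p = 0.00034) and 0.26 ± 0.07 (adjusted p = 0.00574). Without replicate 3 at 37 °C the mis4+ rise of rpc1 was 0.32 (adjusted p = 0.00018). The second-largest subunit gene, rpc2, was at 0.02 and 0.00, with 95% intervals of -0.09 to 0.13 and -0.12 to 0.11, so a change as large as that of rpc1 lay outside both intervals. The zinc-ribbon gene rpc11, whose product drives RNA cleavage and reinitiation, was at -0.05 (adjusted p = 0.459) and 0.08 (adjusted p = 0.197).

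The stalk genes of polymerase III went apart. The level of rpc25 was 8.44, 8.31 and 8.24 in mis4+ at 25 °C and 7.99, 8.01 and 8.38 at 37 °C, where replicate 3 overlapped the 25 °C arrays. In mis4-367 it was 8.36, 8.37 and 8.38 at 25 °C and 8.13, 8.16 and 7.89 at 37 °C, with no overlap. Its change was -0.20 ± 0.10 (adjusted p = 0.106) in mis4+, or -0.33 (adjusted p = 0.00383) without replicate 3 at 37 °C. In mis4-367 rpc25 fell by 0.31 (adjusted p = 0.0192), and the call was lost without replicate 3 at 37 °C (-0.23, adjusted p = 0.0887). Its partner rpc17 was at 0.10 (adjusted p = 0.112) in mis4+ and rose by 0.20 (adjusted p = 0.00532) in mis4-367. The direction of rpc17 depends on the scaling: its values after quantile normalization were -0.17 (adjusted p = 0.0464) in mis4+ and 0.00 (adjusted p = 0.961) in mis4-367. Over the 12 arrays rpc17 was at 6.15 to 6.50, and the background level was 3.42.

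Polymerase I and III share the assembly platform proteins encoded by rpc40 and rpc19. In mis4+ rpc40 was at 10.71, 10.72 and 10.69 at 25 °C and 10.55, 10.43 and 10.46 at 37 °C, a fall of 0.23 (SE 0.05, adjusted p = 0.00257). In mis4-367 it was at 10.70, 10.68 and 10.67 before and 10.48, 10.62 and 10.65 after the shift, a change of -0.10 (adjusted p = 0.116). The arrays did not overlap between temperatures in either strain. Its partner rpc19 was at -0.03 (adjusted p = 0.643) and 0.01 (adjusted p = 0.919).

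The 5 genes of polymerase I had 1 rise and 2 falls in each strain, with medians of 0.04 and 0.00. Of all genes 33.4% rose in each strain and 21.9% (mis4+) or 23.0% (mis4-367) fell. The difference from these shares was not tested. The gene that fell most was rpa43 (SPOM_SPBC3B9.07C), whose product forms the stalk and receives the initiation factor Rrn3. Its levels were 10.16, 10.18 and 10.24 in mis4+ at 25 °C and 9.69, 9.83 and 9.68 at 37 °C. In mis4-367 they were 10.24, 10.27 and 10.22 at 25 °C and 9.78, 9.97 and 9.96 at 37 °C. No array at 37 °C reached the 25 °C levels. The change was -0.46 ± 0.06 (1.38-fold lower, adjusted p = 4.06e-05) in mis4+ and -0.34 ± 0.06 (1.27-fold lower, adjusted p = 0.000391) in mis4-367.

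The zinc-ribbon gene rpa12, whose product cuts back stalled RNA, fell by 0.17 (adjusted p = 0.0132) in mis4+ and by 0.23 (adjusted p = 0.00221) in mis4-367. Its levels were 9.54, 9.47 and 9.52 in mis4+ at 25 °C and 9.34, 9.30 and 9.37 at 37 °C. In mis4-367 they were 9.52, 9.47 and 9.55 at 25 °C and 9.39, 9.25 and 9.20 at 37 °C, and no group overlapped between temperatures. In the TFIIF-like pair, rpa34 rose by 0.39 ± 0.09 (adjusted p = 0.00395) and 0.38 ± 0.09 (adjusted p = 0.00444). Its arrays were more spread, at 8.65, 8.83 and 8.96 in mis4+ at 25 °C against 9.14, 9.11 and 9.36 at 37 °C, and at 8.94, 8.88 and 8.78 in mis4-367 against 9.23, 9.11 and 9.39, but the temperatures did not overlap. Its partner rpa49 was at 0.04 (adjusted p = 0.623) and 0.00 (adjusted p = 0.968). The second-largest subunit gene rpa2 was at 0.06 (95% interval -0.04 to 0.16) and 0.00 (-0.10 to 0.10). The largest, nuc1, was at -0.05 (adjusted p = 0.475) and -0.04 (adjusted p = 0.549), and the stalk gene ker1 at -0.04 (adjusted p = 0.604) and 0.13 (adjusted p = 0.076).

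Of the 6 rrn genes, rrn6 and rrn11 rose in both strains and rrn3 in mis4-367, while 0 fell. The shares of all genes were 33.4% higher in each strain, and 21.9% (mis4+) or 23.0% (mis4-367) lower. So few genes cannot be told from these shares. Rrn6, Rrn7 and Rrn11 form the core factor that binds the ribosomal DNA promoter. The level of rrn11 was 7.79, 7.81 and 7.85 in mis4+ at 25 °C and 8.01, 8.07 and 8.34 at 37 °C, and in mis4-367 it was 7.62, 7.73 and 7.57 before and 8.12, 8.05 and 8.08 after the shift. It rose by 0.32 ± 0.07 (adjusted p = 0.00301) and 0.44 ± 0.07 (adjusted p = 0.000322). Without replicate 3 at 37 °C the mis4+ rise of rrn11 was 0.22 (adjusted p = 0.00251). The level of rrn6 was 8.72, 8.72 and 8.69 against 8.99, 8.93 and 9.29 in mis4+, and 8.58, 8.64 and 8.63 against 8.89, 9.20 and 9.03 in mis4-367. It rose by 0.36 ± 0.09 (adjusted p = 0.00474) and 0.42 ± 0.09 (adjusted p = 0.0016). Without replicate 3 at 37 °C the mis4+ rise of rrn6 was 0.25 (adjusted p = 0.0109). Neither gene overlapped between temperatures.

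The third core factor gene, rrn7, was the least reproducible of the set. On the mis4+ arrays it was at 8.52, 8.64 and 8.64 at 25 °C and at 8.75, 8.77 and 7.95 at 37 °C. Replicate 3 at 37 °C differed from the average of replicates 1 and 2 by -0.81. The change was -0.11 ± 0.17 (adjusted p = 0.607) with it and 0.16 (adjusted p = 0.0958) without it. In mis4-367 the levels were 8.59, 8.52 and 8.41 at 25 °C and 8.72, 8.97 and 8.95 at 37 °C, a change of 0.38 (adjusted p = 0.0751).

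Rrn3 carries polymerase I to the promoter. Its gene was at 9.08 ± 0.10 (SD, n = 3) in mis4+ at 25 °C and 9.16 ± 0.05 at 37 °C, with overlapping arrays (0.07, adjusted p = 0.243). In mis4-367 it was at 8.95, 8.99 and 8.97 at 25 °C and 9.20, 9.21 and 9.19 at 37 °C, a rise of 0.23 ± 0.05 (adjusted p = 0.0024). The genes rrn5 and rrn10 encode parts of the upstream activating factor. They were at 0.13 (adjusted p = 0.186) and 0.00 (adjusted p = 0.943) in mis4+, and at 0.16 (adjusted p = 0.115) and 0.05 (adjusted p = 0.341) in mis4-367.

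Among the 7 polymerase II genes, 2 rose and 1 fell in mis4+, and 3 rose and 1 fell in mis4-367. These counts stand beside 33.4% of all genes higher in each strain, and 21.9% (mis4+) or 23.0% (mis4-367) lower, and were not tested against them. The fall was that of rpb9 (SPOM_SPAPYUG7.04C), which encodes the zinc-ribbon subunit known from budding yeast to act in transcription fidelity and start site choice. It was at 7.59, 7.55 and 7.55 in mis4+ at 25 °C and at 7.02, 6.72 and 6.66 at 37 °C. In mis4-367 it was at 7.50, 7.46 and 7.54 at 25 °C and at 6.58, 6.56 and 6.76 at 37 °C. All arrays at 37 °C were lower than all arrays at 25 °C. The change was -0.76 ± 0.08 (1.69-fold lower, adjusted p = 1.09e-05) in mis4+ and -0.87 ± 0.08 (1.82-fold lower, adjusted p = 3.36e-06) in mis4-367.

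The polymerase II stalk is made of Rpb4 and Rpb7, which bind the emerging RNA and can leave the enzyme in budding yeast. The level of rpb4 was 9.35, 9.41 and 9.35 in mis4+ at 25 °C and 9.68, 9.62 and 9.80 at 37 °C. In mis4-367 it was 9.42, 9.39 and 9.44 at 25 °C and 9.68, 9.75 and 9.75 at 37 °C, with no overlap between temperatures. It rose by 0.33 ± 0.05 (1.26-fold, adjusted p = 0.000143) and 0.31 ± 0.05 (1.24-fold, adjusted p = 0.000203). Its partner rpb7 was at 9.69 on all 3 arrays of mis4+ at 25 °C and at 9.63, 9.68 and 9.87 at 37 °C. In mis4-367 rpb7 was at 9.69, 9.69 and 9.70 before and at 9.61, 9.65 and 9.72 after the shift. Its changes were 0.04 (95% interval -0.09 to 0.17) and -0.04 (-0.16 to 0.09).

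In the core of polymerase II, rpb2 rose by 0.22 ± 0.05 (adjusted p = 0.00253) in mis4+ and by 0.15 ± 0.05 (adjusted p = 0.0182) in mis4-367. The mutant call was lost without replicate 3 of mis4-367 at 25 °C (adjusted p = 0.0701) or replicate 1 at 37 °C (adjusted p = 0.0527). The largest subunit gene rpb1, which carries the heptad-repeat tail, was at 10.56, 10.45 and 10.53 in mis4+ at 25 °C and 10.65, 10.55 and 10.95 at 37 °C. Its change was 0.20 (adjusted p = 0.057) in mis4+, 0.09 (adjusted p = 0.177) without replicate 3 at 37 °C, and 0.04 (adjusted p = 0.721) in mis4-367. Of the platform pair, rpb3 was at 0.06 (adjusted p = 0.411) in mis4+ and rose by 0.14 (adjusted p = 0.0452) in mis4-367, and its partner rpb11 was at -0.13 (adjusted p = 0.152) and -0.10 (adjusted p = 0.268). The rpb3 call was lost without any 1 of 5 of the 6 mis4-367 arrays, with an adjusted p of up to 0.128 without replicate 2 at 37 °C, and kept without replicate 1 at 37 °C. Without mis4+ at 37 °C replicate 3, rpb11 fell by 0.21 in mis4+ (adjusted p = 0.006).

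The genes for subunits used by all 3 enzymes were rpb5, rpb6, rpb8, rpb10 and rpc10. Their changes ran from -0.19 to 0.08 in mis4+ and from -0.12 to 0.09 in mis4-367, with adjusted p-values of 0.12 or more. The narrowest interval was that of rpb6, a subunit that joins the core to the stalk, at 0.02 (95% interval -0.07 to 0.10) and 0.03 (-0.06 to 0.11). The largest value was that of rpb8 in mis4+, at -0.19 (adjusted p = 0.12). Its levels there were 9.14, 9.11 and 9.11 at 25 °C and 8.67, 8.95 and 9.17 at 37 °C, and without replicate 3 at 37 °C it fell by 0.31 (adjusted p = 0.0055).

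**Figure D3:**
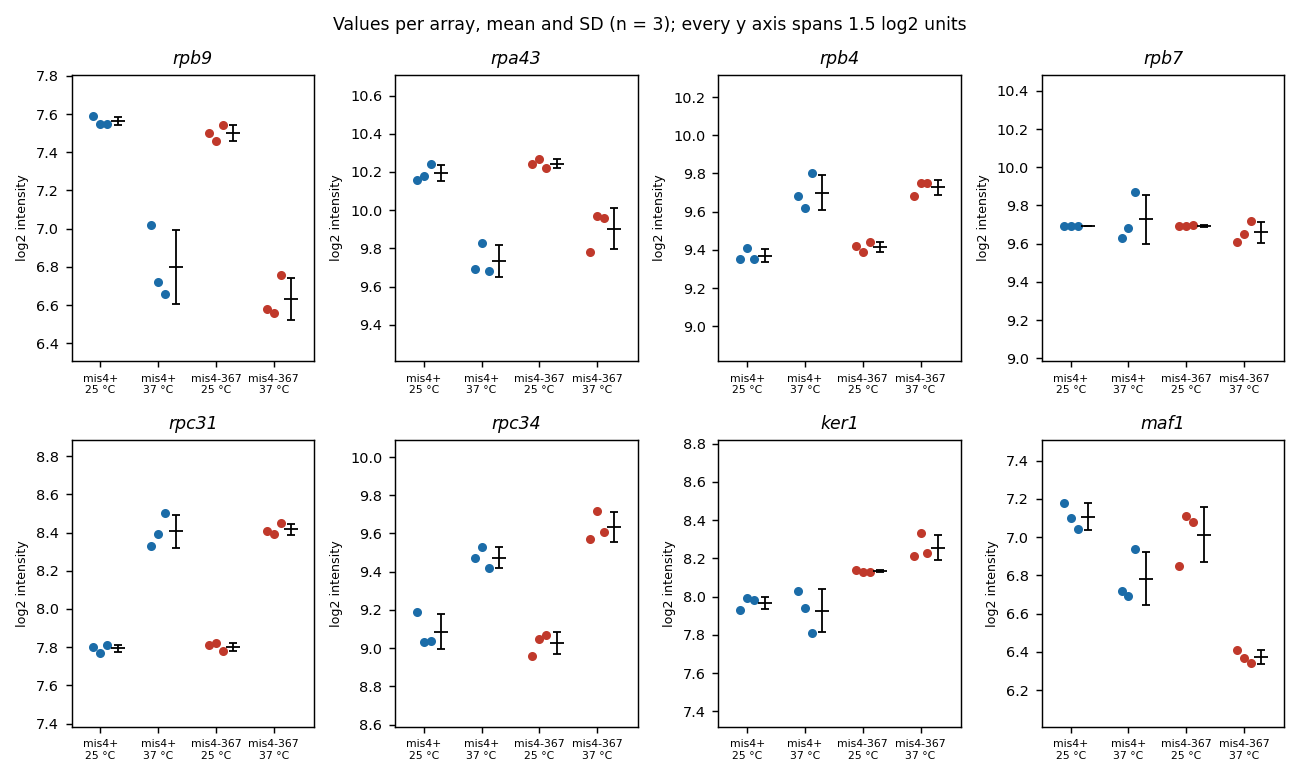
Log2 intensity of 6 polymerase genes and of ker1 and maf1 on each array (points), with the mean and SD of the 3 arrays of a group (bars). Each vertical axis spans the same 1.5 log2 units; rpb9 and rpa43 are lower and rpb4, rpc31 and rpc34 higher at 37 °C in both strains, and rpb7 stays between 9.61 and 9.87.

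Partners that bind each other in 1 module were then compared within each array. For 10 pairs, the log2 level of the second gene was subtracted from that of the first on every array, and the change of this difference from 6 arrays at 25 °C to 6 arrays at 37 °C was tested by an exact two-sided permutation of the arrays between temperatures within each strain. There are 400 such regroupings, so the smallest possible p is 0.005. The pairs were picked with the results known, which favours small p-values, so the p-values are descriptive only, also for these pairs. They are no support for a wider rule. The test compares changes, not levels, of partners. In 9 of the 10 pairs the adjusted permutation p was under 0.05, a count that this choice favours. Since 33.4% of all genes rose and 21.9% to 23.0% fell with the shift, unequal change is not particular to partner subunits, and other pairs of genes were not tested.

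All stalks were among these pairs. The difference of rpb4 and rpb7 grew by 0.32 (exact permutation p = 0.005, adjusted over 10 pairs 0.00833), from between -0.33 and -0.25 at 25 °C to between -0.07 and 0.10 at 37 °C. That of ker1 and rpa43 grew by 0.45 (exact permutation p = 0.005, adjusted 0.00833), by 0.42 in mis4+ and 0.47 in mis4-367. That of rpc17 and rpc25 grew by 0.41 (exact permutation p = 0.01, adjusted 0.0125). On mis4+ at 37 °C replicate 3 it was 0.02 above the 25 °C mean, where the other 5 arrays at 37 °C were 0.39 to 0.63 above it. After quantile normalization the rpc17 and rpc25 value was 0.22 (exact permutation p = 0.06).

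The TFIIF-like pairs also moved unequally, by 0.36 for rpa34 against rpa49 and by 0.26 for rpc37 against rpc53 (exact permutation p = 0.005 and adjusted 0.00833 for each). The difference of rpc34 and rpc82 grew by 0.42, by 0.31 in mis4+ and 0.52 in mis4-367, and that of rpc1 and rpc2 by 0.33 (exact permutation p = 0.005 and adjusted 0.00833 for each). Smaller values were found for the platform pairs, with 0.21 for rpb3 against rpb11 (exact permutation p = 0.025, adjusted 0.0278) and -0.15 for rpc40 against rpc19 (exact permutation p = 0.01, adjusted 0.0125). The rpb3 and rpb11 result was lost, with p up to 0.065, without replicate 2 or 3 of mis4+ at 25 °C or replicate 1 of mis4+ at 37 °C. The core pair of polymerase II, rpb2 against rpb1, was at 0.06 (exact permutation p = 0.16), and at 0.10 (exact permutation p = 0.015) without mis4+ at 37 °C replicate 3.

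**Figure D4:**
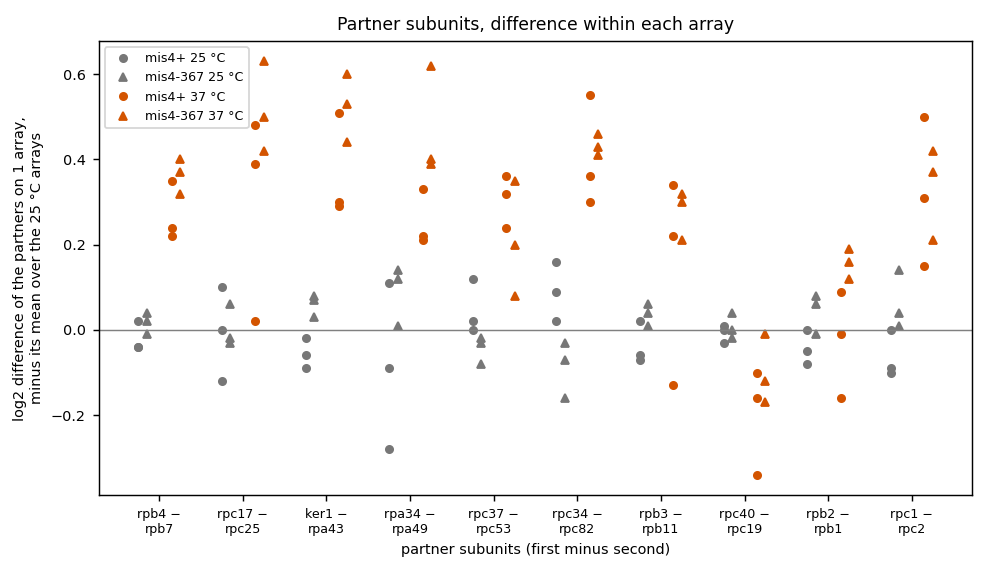
Log2 difference of the 2 partners on each array, minus its mean over the 6 arrays at 25 °C, for 10 pairs; grey marks are 25 °C, orange marks 37 °C, circles mis4+ and triangles mis4-367. For rpb4 and rpb7 and for ker1 and rpa43 every orange mark lies above every grey mark, and for rpb2 and rpb1 the colours overlap.

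The strain comparison asked whether loss of Mis4 function changes these genes. At 37 °C, the temperature meant to inactivate the mutant protein, 0 of the 35 genes rose and 0 fell in mis4-367 against mis4+ (limma), while 1.73% of all genes were higher and 5.46% lower. The split of these 50 and 158 genes depends on the scaling, with 80 higher and 108 lower after re-centring the arrays and 88 and 88 after quantile normalization. Without mis4+ at 37 °C replicate 3, 30 of all genes were higher and 73 lower. In the main fit of 12 arrays, 9 of the 35 genes and 850 of the 2896 had an unadjusted p under 0.05. The median difference was 0.01 for the polymerase genes and -0.05 for all genes. The 95% intervals of the 35 genes reached from -0.45 for rpb1 to 0.76 for rrn7, and to 0.40 when rrn7 is set aside.

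The smallest adjusted p at 37 °C was that of rpb1, at 10.51, 10.39 and 10.43 in mis4-367 against 10.65, 10.55 and 10.95 in mis4+. The difference was -0.27 ± 0.08 (adjusted p = 0.0683), and -0.15 (adjusted p = 0.116) without mis4+ replicate 3. No mutant array reached the wild-type range. Next were rpc17 at 0.15 (adjusted p = 0.0811), rpa43 at 0.17 (adjusted p = 0.0893), rpc34 at 0.16 (adjusted p = 0.107) and rpc2 at -0.13 (adjusted p = 0.114). The largest difference was that of rrn7, at 0.39 ± 0.17 (adjusted p = 0.149), and it was 0.12 (adjusted p = 0.352) without mis4+ replicate 3. Without replicate 2 of mis4+ at 37 °C 5 genes passed, which were rpa43 (0.22, adjusted p = 0.0316) and rpc17 (0.19, adjusted p = 0.0361) as higher and rpb1 (-0.35, adjusted p = 0.0178), rpa49 (-0.26, adjusted p = 0.0208) and rpc1 (-0.20, adjusted p = 0.0458) as lower. Without replicate 1 of mis4-367 at 37 °C, rpa43 alone passed (0.23, adjusted p = 0.0418). Over all genes, 130 were higher and 436 lower without replicate 2 of mis4+ at 37 °C. Without replicate 1 of mis4-367 at 37 °C, 53 of all genes were higher and 68 lower.

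At 25 °C, the permissive temperature, 0 of the 35 genes differed (limma), against 0% of all genes higher and 0.622% lower. There were 4 of the 35 and 329 of the 2896 at an unadjusted p under 0.05. The smallest adjusted p was 0.369, for rpb10 at 0.11, and the intervals lay between -0.46 and 0.34. The largest difference was that of rrn11, at -0.18 (adjusted p = 0.392), with levels of 7.62, 7.73 and 7.57 in mis4-367 against 7.79, 7.81 and 7.85 in mis4+, which did not overlap. Of all 2896 genes, 256 lay wholly above and 692 wholly below in mis4-367 at 25 °C, against 5 and 7 of the 35.

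The test of the difference between the temperature responses of the strains found 0 of the 35 genes and 0% of all genes in either direction (limma). At an unadjusted p under 0.05 there were 1 of the 35 genes, rpc34, and 141 of the 2896. For rpc34 the response of mis4-367 was larger by 0.22 ± 0.08 (adjusted p = 0.824), and for rrn7 by 0.49 ± 0.24 (adjusted p = 0.824), or 0.22 (adjusted p = 0.765) without mis4+ at 37 °C replicate 3. The intervals of the 35 genes ran from -0.42 for rpb1 to 1.01 for rrn7, with the next at 0.40. Genes called in only 1 strain, such as rpc40, rpc53, rrn3, rpb3, rpc17 and rpc25, are thus not shown to respond differently in the other.

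**Figure D5:**
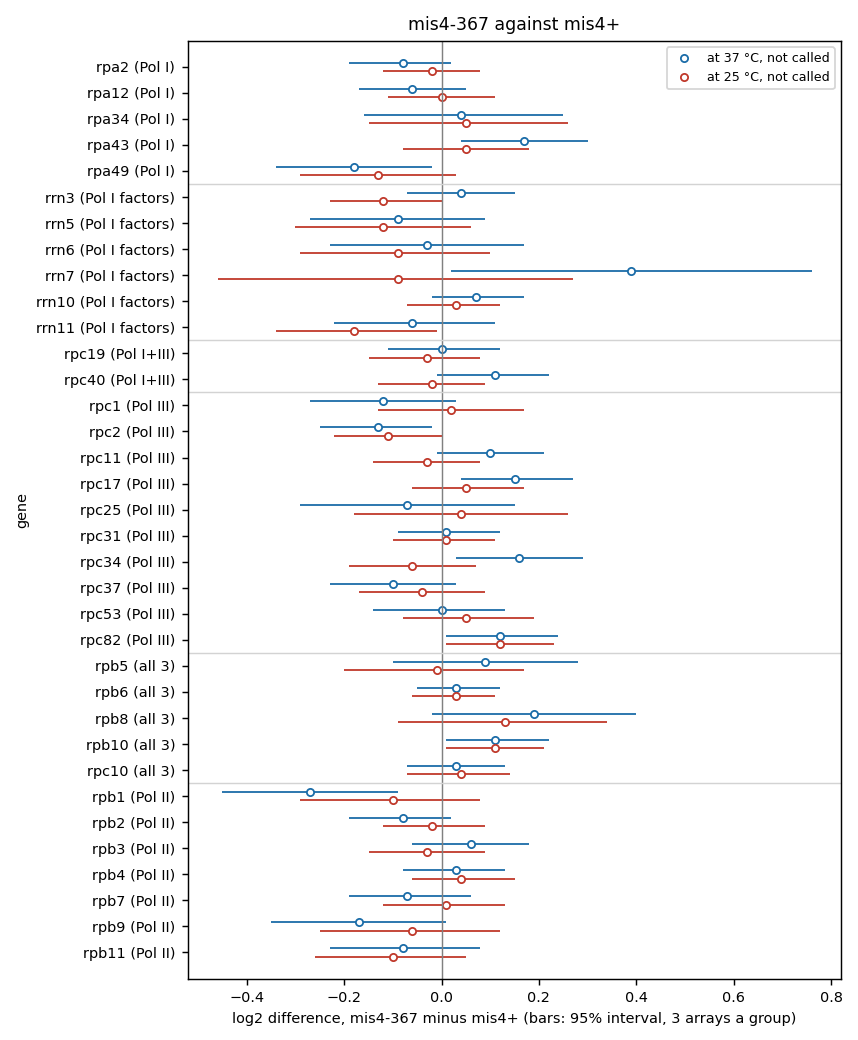
Log2 difference between mis4-367 and mis4+ of each gene at 37 °C (blue) and at 25 °C (red), with 95% intervals from limma over 3 arrays a group. Every point is open because none passed an adjusted p of 0.05, and the widest intervals are those of rrn7.

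Of the polymerase I subunit genes outside the symbol rule, ker1 passed in this comparison and nuc1 did not. The largest subunit gene of polymerase I, nuc1, was at -0.02 (adjusted p = 0.849) between the strains at 37 °C. The stalk gene ker1 was at 8.03, 7.94 and 7.81 in mis4+ and 8.21, 8.33 and 8.23 in mis4-367 at 37 °C, which did not overlap. It was higher in the mutant by 0.33 ± 0.06 (1.26-fold, adjusted p = 0.0112), and at 25 °C by 0.17 (adjusted p = 0.236). Without mis4-367 at 37 °C replicate 2 the difference was 0.30 (adjusted p = 0.0642), and over the alternatives run the adjusted p went from 0.00359 to 0.127.

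Maf1 represses polymerase III when nutrients fail or cells are stressed. Its gene was at 6.72, 6.69 and 6.94 in mis4+ and 6.41, 6.37 and 6.34 in mis4-367 at 37 °C, with no overlap, and was lower in the mutant by 0.41 on the log2 scale (SE 0.08, 1.33-fold, adjusted p = 0.0172). Without mis4-367 at 37 °C replicate 2 the call was lost (-0.41, adjusted p = 0.0679), and the adjusted p ran from 0.0105 to 0.104 over the alternatives. At 25 °C the difference was -0.09 (adjusted p = 0.717), with levels of 7.18, 7.10 and 7.04 against 6.85, 7.11 and 7.08. From 25 to 37 °C maf1 fell by 0.32 (adjusted p = 0.00378) in mis4+ and by 0.64 (adjusted p = 2.03e-05) in mis4-367, and the difference of these responses was -0.32 (adjusted p = 0.824).

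Lists of other transcription genes give the surroundings of these values. The shares to set their counts against are those of all genes, 33.4% higher in each strain and 21.9% (mis4+) or 23.0% (mis4-367) lower with the shift, and 1.73% higher and 5.46% lower between the strains at 37 °C. The difference of a list from these shares was not tested. Of 9 measured polymerase III factor genes, 6 rose and 1 fell in mis4+, and 5 rose and 1 fell in mis4-367, with medians of 0.37 and 0.22 against 0.04 for all genes. In mis4+ and mis4-367 in turn, the TATA-binding protein gene tbp1, which serves all 3 enzymes, rose by 0.70 and 0.52, the TFIIIB genes bdp1 and brf1 rose by 0.49 and 0.63 and by 0.39 and 0.62, and the TFIIIC gene sfc3 rose by 0.55 and 0.50. The gene of the list that fell was maf1, with the values given above. Of 4 polymerase I genes outside the symbol rule, reb1, which binds ribosomal DNA, rose by 0.24 in each strain. The gene spp27, for a subunit of the upstream activating factor, fell from 9.19, 9.11 and 9.17 to 8.30, 7.98 and 8.42 in mis4+ and from 9.09, 9.12 and 9.17 to 7.96, 7.95 and 8.07 in mis4-367. The changes were -0.92 and -1.13 (SE 0.09; adjusted p = 3.73e-06 and 5.8e-07), against -0.76 and -0.87 for rpb9.

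Of 30 polymerase II initiation genes, 13 rose and 1 fell in mis4+, and 14 rose and 5 fell in mis4-367, with medians of 0.14 and 0.18. TFIIH is the factor that opens promoters and phosphorylates the Rpb1 tail. Its genes tfb2 (0.64 and 0.70), tfb4 (0.54 and 0.52), tfb5 (0.49 and 0.63) and mcs2 (0.41 and 0.53) rose in both strains. The TFIIH genes ptr8 and mcs6, named after their values were seen, were at -0.16 (adjusted p = 0.0545) and -0.08 (adjusted p = 0.391) in mis4+ and fell by 0.26 (adjusted p = 0.00488) and 0.21 (adjusted p = 0.0433) in mis4-367. Of 21 Mediator genes, 5 rose and 3 fell in mis4+, and 7 rose and 1 fell in mis4-367. The Mediator gene srb6 rose by 0.72 and 0.79, med20 by 0.47 and 0.49, and med18 by 0.34 in each strain. The Mediator gene med31 was at 0.24 (adjusted p = 0.0802) in mis4+, or 0.39 (adjusted p = 0.000276) without replicate 3 at 37 °C, and rose by 0.51 in mis4-367. Of 22 elongation and tail-kinase genes, 6 rose and 4 fell in mis4+, and 7 rose and 4 fell in mis4-367. Here spt16, a subunit of the histone chaperone FACT, rose by 0.46 and 0.45, and pch1, the cyclin of the elongation kinase Cdk9, fell by 0.56 and 0.43. The list also held nrd1, an RNA-binding protein gene of another function in S. pombe (-0.43 and -0.50), and spn1, a septin gene (-0.04 and -0.05, adjusted p = 0.627 and 0.565).

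Between the strains at 37 °C, where 1.73% of all genes were higher and 5.46% lower, the initiation and Mediator lists held 0 genes that passed. The elongation list held 0 that rose and 3 that fell: lsc1, the cyclin of a tail kinase (-0.33, adjusted p = 0.00939), eaf1, a partner of the factor ELL (-0.31, adjusted p = 0.0464), and iws1, an elongation factor gene (-0.25, adjusted p = 0.042). The calls of eaf1 and iws1 were each lost without any 1 of 5 of the 6 arrays at 37 °C, with adjusted p of up to 0.156 and 0.155, and kept without mis4+ replicate 2. That of lsc1 was lost in a fit of the compared groups alone (adjusted p = 0.125). At 25 °C 0 genes of these 5 lists passed (limma).

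Genes of other lists passed in the same comparisons, to be set against the same shares of all genes (33.4% higher and 21.9% or 23.0% lower with the shift, 5.46% lower between the strains). Of 5 measured heat shock genes, 3 rose and 1 fell with the shift in each strain, with a median of 0.12 in each. The largest rise was that of hsp16, by 0.83 in mis4+ and 1.10 in mis4-367. The gene that fell was ssa1, at -0.37 in mis4+ and -0.77 in mis4-367. Of 9 genes that mark phases outside G1, 3 rose and 4 fell in mis4+, 1 rose and 4 fell in mis4-367, and 5 were lower in mis4-367 at 37 °C. Of 6 conjugation or meiosis genes, 2 rose and 2 fell in mis4+, 1 rose and 2 fell in mis4-367, and 3 were lower in the mutant at 37 °C. The gene res1, a piece of which is on the plasmid, fell by 0.46 in mis4+ (adjusted p = 0.00118) and was at -0.22 (adjusted p = 0.06) in mis4-367. At 37 °C res1 was higher in the mutant by 0.40 (adjusted p = 0.0318). The part of these genes in the changes of the polymerase genes was not tested.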

How the data were processed

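Total RNA of 12 cultures was hybridised to GeneChip arrays with probe sets for S. pombe and another yeast. The authors deposited 1 table with an intensity per probe set and array. RMA made these values, per the submitters' processing notes: a background correction, quantile normalization over the arrays and a summary of each probe set's probes. RMA ends in log2 values, while the deposited intensity is linear (up to 12169). That step and the RMA version are not given in the sources used here. The method assumes that most signals do not change, so a broad shift in RNA would be flattened, and dim probe sets understate changes. All columns were assigned to samples by name and 0 were left over.

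Intensities were converted to log2 with no pseudocount added. The table has 10928 probe sets, of which 2914 name a single gene found in the S. pombe reference table (assembly ASM294v3), and 113 symbols were updated through it. The brightest probe set was used for 14 genes with more than 1, which left 2896 genes. Background was the 95th percentile of the 2601 probe sets of the other species, 3.42 on the log2 scale. The number of arrays limits the precision. Means of the 4 groups were fitted by limma 3.58.1 under R 4.3.3 over 12 arrays, with moderated variances (eBayes) and no block, weights or filter, and the fit was tested on simulated data. Partner subunits were compared by exact permutation in R 4.3.3, and the gene values were prepared in Python 3.11.15. Every member is named, and of each list of other transcription genes at most the 3 with the largest change among those past the threshold. Named beside that rule were spn1, nuc1, ptr8, mcs6, and the genes of the heat shock, cell phase and arrest lists. The members, lists and pairs were chosen with earlier results of these data known. Alternatives were another scaling, probe set means, a background filter, a fit of the compared groups alone, a replicate block, array weights and leaving out each array. Promoter and protein sequences were not used here.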

Additional observations from a re-analysis of the deposited data

How the results depend on the processing

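For the shift, counts of the 35 genes that passed kept to within 1.5 times under most alternatives. Between the strains the main count was 0, and it was less stable. There 10 of the 35 genes at 37 °C and 6 at 25 °C passed in at least 1 alternative. For mis4-367 against mis4+ at 37 °C, re-centring the arrays gave 1 higher gene (rpc82), quantile normalization 1 (rpc17), and array weights 4 higher and 3 lower; leaving out 1 array gave 0 to 2 higher and 0 to 3 lower. At 25 °C array weights gave 1 higher and 5 lower, and leaving out 1 array gave 0. For the shift in mis4+, quantile normalization and array weights each gave 7 lower genes, and leaving out 1 array gave 9 to 11 higher and 4 to 7 lower. The falls over all genes grew as well, from 633 to 834 with quantile normalization and to 838 with array weights. Without 1 array, 835 to 1004 of all genes were higher and 522 to 784 lower in mis4+. For the shift in mis4-367, leaving out 1 array gave 10 to 11 higher and 3 to 4 lower, beside 842 to 967 higher and 589 to 652 lower over all genes. For the difference of responses, leaving out 1 array gave 0 of the 35 genes. In the shift, quantile normalization turned rpc17 to -0.17 in mis4+ and 0.00 in mis4-367; the cause was not tested. Of the 14 calls in mis4+ 13 held in every alternative, and of the 16 in mis4-367 12 did. Over all genes, the calls at 37 °C numbered 10 with the compared groups alone, 474 with array weights, and 22 to 566 without 1 array, against 208 (50 higher, 158 lower); re-centring gave 80 higher and 108 lower, and quantile normalization 88 and 88. At 25 °C they numbered 3 with quantile normalization, 154 with the compared groups alone, 496 with array weights, and 5 to 14 without 1 array, against 18. The labels do not say whether a replicate number marks 1 culture, and correlations of so few arrays cannot settle it. Deviations of same-numbered arrays of 1 strain had r from -0.088 to 0.09. Over all same-numbered arrays r ran from -0.383 to 0.23, and over differently numbered arrays from -0.231 to 0.402. Of the 12 arrays, 4 correlated best with their own number. With the replicate block, 0 genes of the set passed between strains, 10 rose and 4 fell in mis4+, and 11 rose and 4 fell in mis4-367, with 181, 26, 1587 and 1630 calls over all genes. A fit of the compared groups alone is not possible for the difference of responses, which uses all 4.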

Other observations

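The arrays also carry 31 probe sets of the other yeast whose symbols follow the same naming rule. On these arrays 0 of the 31 had a mean above the background level of 3.42, and their log2 values ran from 2.15 to 3.49. On mis4+ at 37 °C replicate 3, the polymerase genes farthest from the other arrays of the group were rrn7 (-0.81), rpc25 (0.38), rpb8 (0.36), rpb5 (-0.35) and rpb1 (0.35). The median over the 35 genes was 0.123 on this array, and between -0.069 and 0.013 on the other 11 arrays. This array also had the largest SD of these differences over all genes, 0.202 against 0.065 to 0.134 on the other 11.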
